A study of Rattus norvegicus with 4 samples.

Results

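The comparison described here is that of 2 rat myoblast cultures grown as ordinary monolayers: L6-HGF cells, which carry a human hepatocyte growth factor (hHGF) gene, and the wild-type L6-WT cells they were made from. L6 is an established skeletal myoblast line from the Wistar rat. The hHGF gene was delivered by the pBabepuro retroviral vector with polybrene and the cells were selected with puromycin, whereas no empty-vector culture is described for L6-WT, so that an effect of hHGF, of the vector and of the selection cannot be told apart. Expression was measured on Affymetrix rat arrays, and each culture was hybridised to 1 array. These are 2 of the 4 arrays of the study. The other 2 were hybridised with L6-HGF and L6-WT cell sheets, dense layers grown on thermoreactive dishes from which they detached on their own, and their values are set beside the monolayer values as a second, equally unreplicated pair that shares no array with the first. With 1 array per culture there is no estimate of the spread between cultures, and the differences below are therefore given as sizes without a test.

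HGF is a secreted factor of mesenchymal cells. It signals through MET, a receptor tyrosine kinase, to the MAPK and phosphatidylinositol 3-kinase pathways and drives proliferation, scattering and survival. In skeletal muscle it is known for activating satellite cells, the resident stem cells, and for holding cultured myoblasts back from differentiation. Differentiating myoblasts leave the cell cycle, switch on myogenin, fuse into myotubes and build sarcomeres from actin, myosin and troponins.

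Each deposited number is a log2 value, and every probe set was centred on the median of its 4 arrays. A value therefore states how far an array lay above or below that median for that gene (called the relative value below), and says nothing of how strongly the gene was expressed. With 4 arrays the median lies midway between the middle values, so that 2 arrays often carry mirrored relative values. A difference is the relative value of L6-HGF minus that of L6-WT, averaged over the probe sets of a gene, and a gene is called higher or lower in L6-HGF when the difference exceeds 1 log2 unit, which is 2-fold.

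Of 14217 named genes, 32 (0.225%) were more than 2-fold higher and 44 (0.309%) more than 2-fold lower in L6-HGF monolayers, as compared to L6-WT. Most genes lay close together on the 2 arrays: 79.0% differed by less than 1.2-fold and 97.5% by less than 1.5-fold, with a median difference of 0.00 and a median size of 0.13. The difference was above 0 in 7160 of the 14217 genes and below 0 in 7019, to be set beside the list counts below. Among all 31042 probe sets, 63 (0.203%) were past the same limit upwards and 85 (0.274%) downwards. Quantile normalisation gave 114 and 126. Here and below it was applied to the centred values, giving every array the same set of relative values, and not to signals. The 45 bacterial and phage control probe sets, which do not depend on the cells, differed by -0.18 to 0.35 between the arrays, and 36 of them were above 0 with a median of 0.10. The control probe sets for rat beta-actin differed by -0.05 to 0.01 and those for GAPDH by 0.28 to 0.37. The genes nearest to the limit on its inner side were Angpt4 at 0.99 and Mlana at -0.99, and the nearest on its outer side were Ifgga2l1 at 1.01 and Dmxl2 at -1.01. As bulk RNA was hybridised, fewer cells expressing a gene and less of its RNA per cell cannot be told apart in any of these values.

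**Figure D1:**
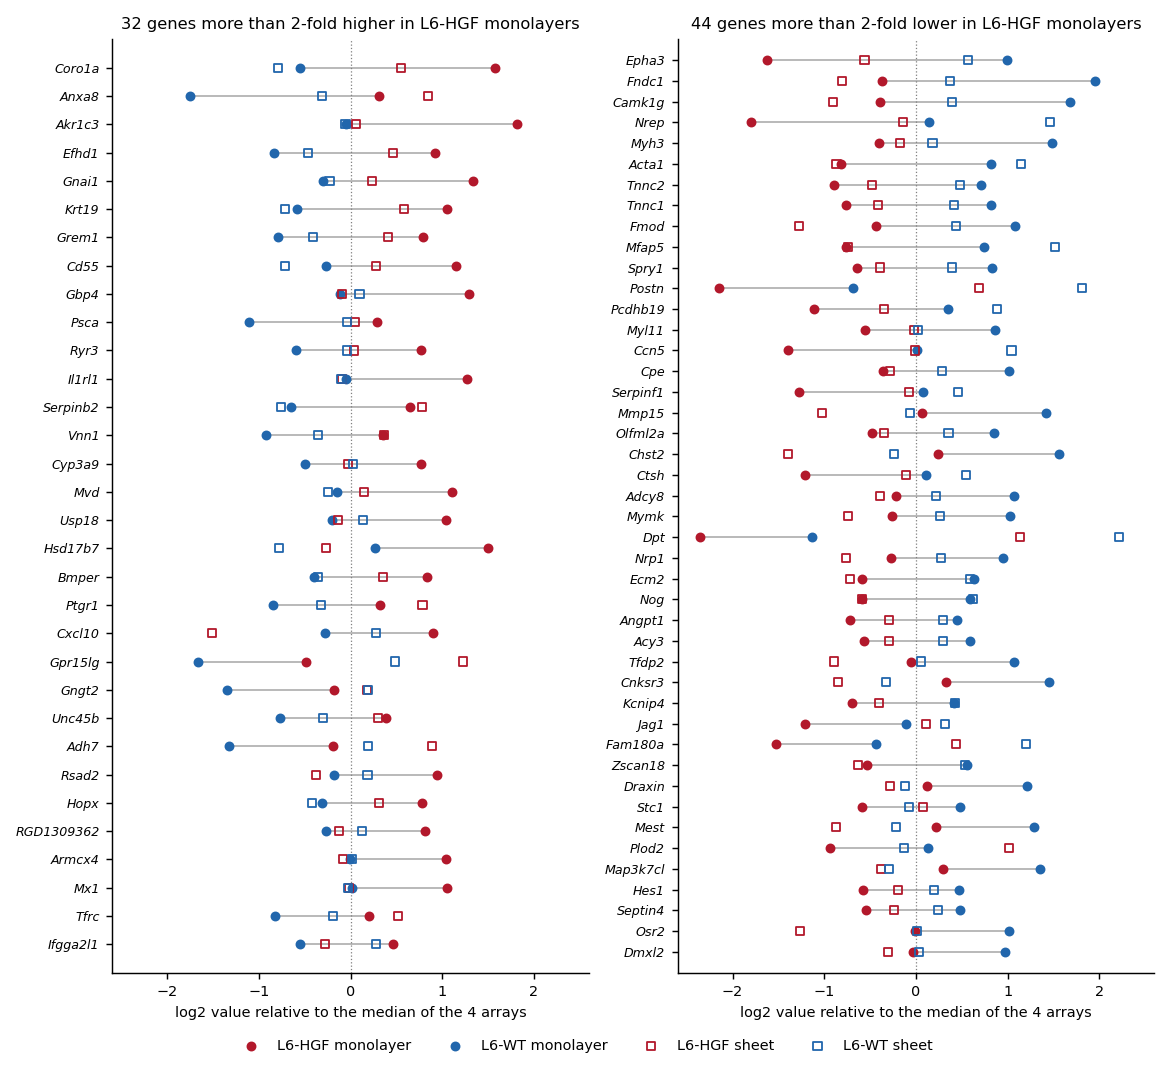
Relative log2 value (horizontal axis) of each gene more than 2-fold higher (left, 32 genes) or lower (right, 44 genes) in L6-HGF monolayers, on each of the 4 arrays. Filled circles are monolayers, open squares are sheets, red is L6-HGF and blue is L6-WT, and grey lines join the monolayer arrays. The L6-HGF monolayer array lies furthest from the median for 19 of the higher genes, and the L6-WT monolayer array for 20 of the lower ones.

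The largest difference of all was that of Epha3, a receptor tyrosine kinase for ephrins that guides cell adhesion and repulsion. Its relative values were -1.63 in L6-HGF monolayers, 0.99 in L6-WT monolayers, -0.56 in L6-HGF sheets and 0.56 in L6-WT sheets, so that both L6-HGF arrays were below both L6-WT arrays. The monolayer difference was -2.62, or 6.15-fold lower, and its 3 probe sets gave -3.14 to -1.95. No other of the 16 measured Eph receptors and ephrins was past 2-fold, and their median difference was -0.00. Epha4 (-0.53) and Ephb4 (-0.49) came next in size.

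Genes of the contractile apparatus had mostly small negative differences, with a few past 2-fold. Of 48 measured sarcomere genes, 34 were below 0 and 14 above, 5 were more than 2-fold lower and 1 was more than 2-fold higher, and the median difference was -0.16, beside 0.00 over all genes. Myh3, the embryonic myosin heavy chain, stood at -0.40 in L6-HGF and 1.48 in L6-WT monolayers, with the sheets between them at -0.18 and 0.18. Acta1, skeletal alpha-actin, had relative values of -0.82 and 0.82 in L6-HGF and L6-WT monolayers, and of -0.87 and 1.14 in the corresponding sheets. Its difference was thus -1.64 in monolayers and -2.01 in sheets, the highest value of the 4 being that of L6-WT sheets.

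The calcium-binding troponin C subunits were lower together. Tnnc2, the fast form, differed by -1.61 (3.05-fold), from relative values of -0.90 and 0.71, and Tnnc1, the slow and cardiac form, by -1.58 (2.98-fold), from -0.76 and 0.81. In sheets the same differences were -0.97 and -0.83. Myl11, the fast regulatory myosin light chain, differed by -1.42 in monolayers, whereas its sheet arrays lay within 0.04 of each other. The remaining troponins were closer: Tnnt2 was at -0.70, Tnnt1 at -0.38, Tnni1 at -0.21, Tnnt3 at -0.09 and Tnni2 at -0.03.

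Not every contractile gene lay on the low side. Unc45b, a chaperone that folds myosin, was 2.23-fold higher in L6-HGF monolayers, with relative values of 0.39 and -0.77 against 0.30 and -0.30 in the sheets. The adult myosin heavy chain Myh1 was at 0.72, desmin (Des), the intermediate filament of muscle, at 0.43 and the muscle gene Klhl41 at 0.27, all of them within 2-fold. The median of the sarcomere list was -0.16 in monolayers and 0.00 in sheets.

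Among 19 measured regulators of myogenesis and fusion, 15 were below 0, with a median of -0.12, and 1 was past 2-fold. This was Mymk (myomaker), a membrane protein needed for myoblast fusion, which had relative values of -0.26 in L6-HGF and 1.02 in L6-WT monolayers and of -0.74 and 0.26 in sheets, lower in L6-HGF in both. Myog, the transcription factor myogenin, differed by -0.60 in monolayers and -0.78 in sheets, both within 2-fold. Myod1, the determination factor, was at -0.12 and Mef2c at -0.17.

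Of 26 genes listed for muscle calcium handling, which include calcium/calmodulin-dependent kinases in general, 1 was more than 2-fold lower and 1 more than 2-fold higher. Camk1g, a calcium/calmodulin-dependent kinase, was at -0.39 in L6-HGF and 1.68 in L6-WT monolayers, which is 4.21-fold lower, and its 2 probe sets gave -2.35 and -1.80. In the opposite direction, Ryr3, a calcium release channel, was at 0.77 and -0.60, with both sheet arrays within 0.04 of the median. Outside that list, Efhd1, a calcium-binding protein of mitochondria, was 3.38-fold higher in L6-HGF, from 0.92 and -0.83, and the sheet arrays were at 0.46 and -0.46. Adcy8, an adenylyl cyclase stimulated by calcium and calmodulin, differed by -1.29, and Kcnip4, a calcium-binding subunit of potassium channels, differed by -1.11.

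The window of 60 bases that holds a CArG box before the Acta1 start site is printed because this motif, CC and GG with 6 A or T bases between them, is bound by serum response factor in muscle genes. It comes from the RefSeq promoter table (250 bases before to 50 after each start, build GRCr8), lies at chr19:68784254-68784313 on the minus strand, reads 5′ to 3′ along the gene, and has the box in capitals.
Acta1: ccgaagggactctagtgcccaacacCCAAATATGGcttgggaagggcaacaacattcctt
The box occurs in 4 of the 38 sarcomere genes with a promoter in the table (10.5%) and in 1.64% of all 27457 promoters. The other 3 are Myh4 (-0.19), Myl3 (-0.12) and Ldb3 (-0.37), all within 2-fold. The motif was chosen with the values known and its presence is a description only.

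Several extracellular matrix genes were lower in L6-HGF monolayers. Of 46 measured glycoproteins and proteoglycans, 36 were below 0, 6 were more than 2-fold lower and 0 more than 2-fold higher, with a median of -0.24, and after quantile normalisation 5 were past 2-fold. Fndc1, a secreted protein with fibronectin type III domains, was at -0.37 in L6-HGF and 1.95 in L6-WT monolayers, 4.98-fold lower, with -0.80 and 0.37 in sheets. Fmod (fibromodulin) and Ecm2, both leucine-rich repeat proteins of the matrix, differed by -1.51 and -1.22 in monolayers and by -1.71 and -1.31 in sheets. Mfap5, a protein of elastic microfibrils, was at -0.76 and 0.74 in monolayers and at -0.74 and 1.52 in sheets, so that its sheet difference of -2.26 exceeded its monolayer difference, which was 2.83-fold.

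Postn (periostin) and Dpt (dermatopontin), which organise collagen fibrils, showed another arrangement of the arrays. Their calls changed with quantile normalisation of the centred values. Dpt had relative values of -2.36 and -1.13 in L6-HGF and L6-WT monolayers and of 1.13 and 2.21 in the sheets. Postn was at -2.15 and -0.69 in monolayers and at 0.69 and 1.81 in sheets. For both genes L6-HGF was below L6-WT in each form of culture, but the sheet arrays were above both monolayer arrays, and the distance between culture forms was wider than that between the cell lines. After that normalisation the monolayer difference of Postn moved from -1.47 to -0.92 and that of Dpt from -1.23 to -0.75, both within 2-fold. Scaling the arrays to a common interquartile range left them past 2-fold, at -1.42 and -1.14. Besides Fmod, the small leucine-rich proteoglycans were all within 2-fold: Ogn (osteoglycin) was at -0.96, Aspn (asporin) at -0.62, Omd (osteomodulin) at -0.55, Bgn (biglycan) at -0.41 and Prelp at -0.16, whereas Dcn (decorin) was at 0.02 and Lum (lumican) at 0.44. Of the 16 fibroblast markers 10 were below 0 and 6 above, with a median of -0.18, and Mfap5 and Dpt were the ones past 2-fold. The part of fibroblast-like cells in these differences was not tested.

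Of 32 measured collagens and cross-linking enzymes, 26 were below 0 with a median of -0.21, beside a median of 0.04 in sheets. The fibrillar collagens differed little, with Col1a1 at -0.27, Col1a2 at -0.17 and Col3a1 at -0.18. Larger differences within 2-fold were those of Col8a2 (-0.75), Col6a3 (-0.69), Col12a1 (-0.63) and the basement membrane collagen Col4a1 (-0.61). The only member past 2-fold was Plod2, a lysyl hydroxylase of collagen. It was at -0.93 in L6-HGF and 0.13 in L6-WT monolayers but at 1.01 and -0.13 in sheets, the opposite order.

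Further secreted or matrix-associated genes were lower by more than 2-fold. Ccn5, a matricellular protein of the CCN family, was at -1.40 and 0.01, and Serpinf1, a secreted serpin with antiangiogenic activity (PEDF), at -1.27 and 0.08, with the L6-WT monolayer array near the median in both. In sheets Ccn5 was at -0.01 and 1.04, also past 2-fold, and Serpinf1 was at -0.08 and 0.46. Olfml2a, an olfactomedin-like secreted protein, differed by -1.33, and its 2 probe sets gave -1.43 and -1.23. Fam180a was at -1.53 and -0.44 in monolayers and above the median in both sheets, lower in L6-HGF in both, and its difference after quantile normalisation was -0.97, within 2-fold. The sulfotransferase Chst2, which acts on glycan chains, was at 0.24 and 1.56 in monolayers and at -1.40 and -0.24 in sheets, lower in L6-HGF in both.

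The matrix proteases and their inhibitors were divided. Among 35 measured, 24 were below 0 with a median of -0.12, 1 was more than 2-fold lower and 1 more than 2-fold higher. Mmp15, a membrane-type metalloprotease, was 2.54-fold lower in L6-HGF, from 0.07 and 1.42. Serpinb2, an inhibitor of urokinase plasminogen activator, was 2.45-fold higher, at 0.65 and -0.65 in monolayers and at 0.78 and -0.76 in sheets, and was the one higher gene whose sheet difference (1.55) was the larger. Outside that list, the lysosomal protease cathepsin H (Ctsh) differed by -1.32 and carboxypeptidase E (Cpe), which trims prohormones, by -1.38.

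**Figure D2:**
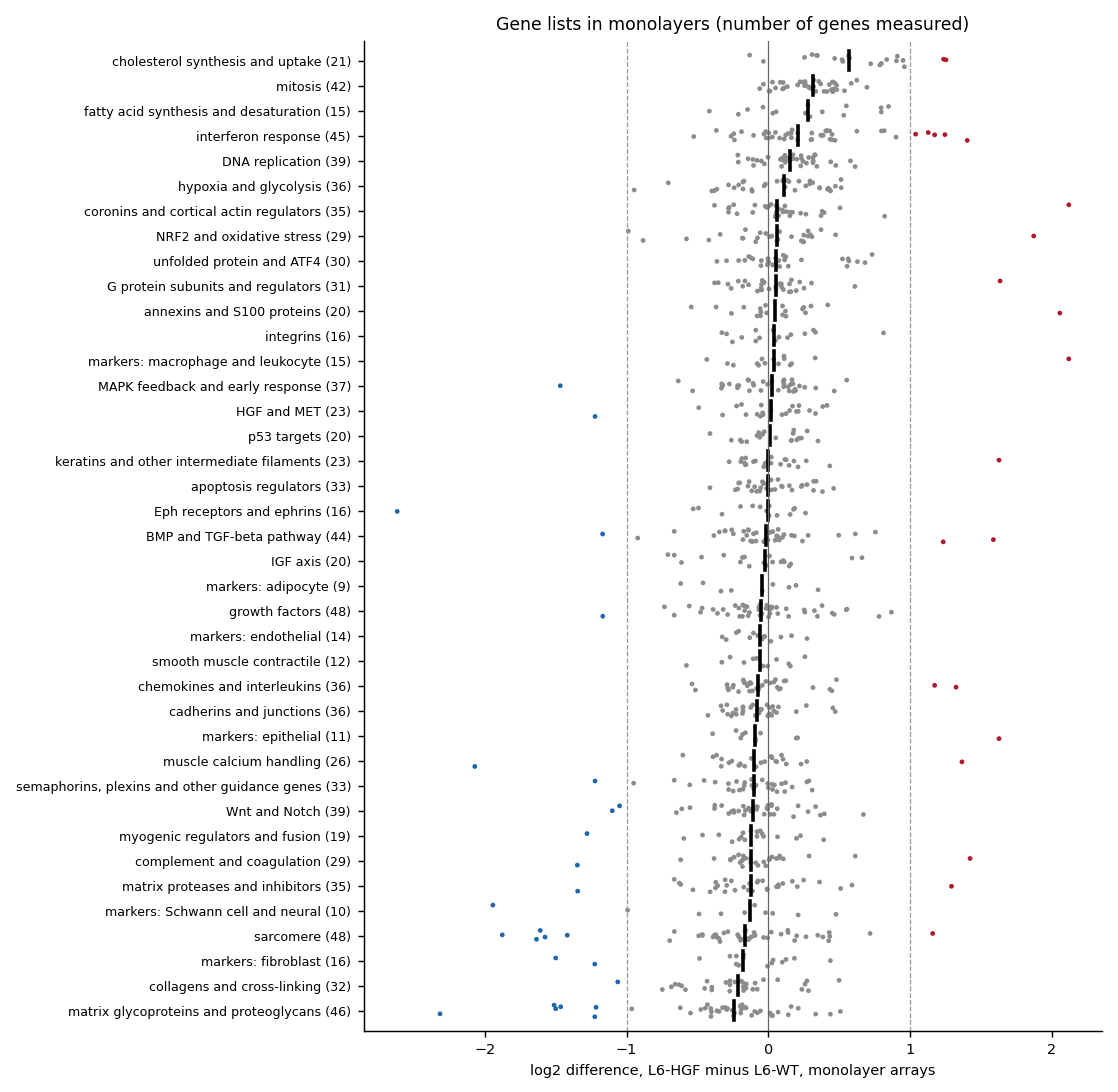
Log2 difference between the L6-HGF and L6-WT monolayer arrays (horizontal axis) for the measured members of 39 gene lists, ordered by list median (black bars), with the number measured in parentheses. Red and blue points are past 2-fold (dashed lines). Cholesterol synthesis has the highest median at 0.57 and matrix glycoproteins the lowest at -0.24, and 13 lists have no member past 2-fold.

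Most measured genes of the HGF pathway itself differed little in RNA. Of 23 measured genes for the ligand, its receptor, its activating proteases, their inhibitors and adaptors, 12 were above 0 and 11 below, with a median of 0.02. The 1 probe set for rat Hgf gave a difference of 0.38 in monolayers and 0.50 in sheets, but whether it detects the human transcript was not checked, so that it is no test of the transgene. Met was at 0.52 and 0.31 in L6-HGF and L6-WT monolayers and at -0.73 and -0.31 in sheets. Sdc1, a heparan sulfate proteoglycan that binds HGF, was at 0.41, and the docking protein Gab1 at -0.32. The one member past 2-fold was Nrp1 (neuropilin-1), a coreceptor for semaphorins, VEGF and HGF, at -0.27 and 0.95 in monolayers and at -0.77 and 0.27 in sheets, with 2 probe sets at -1.28 and -1.16.

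Of 37 genes of MAPK feedback and early response, 19 were above 0 and 18 below, with a median of 0.03. Spry1 (sprouty-1), which dampens receptor tyrosine kinase signalling, was the one past 2-fold. Its relative values were -0.64 and 0.83 in monolayers and -0.40 and 0.40 in sheets, 2.77-fold lower in L6-HGF monolayers. Other members of this feedback did not follow it, with Spry2 at 0.16, Spry4 at -0.10 and the ERK phosphatase Dusp6 at 0.07.

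Among 48 growth factors, the median was -0.05 and 1 was past 2-fold. Angpt1, an angiopoietin that activates the endothelial receptor TIE2, was at -0.72 and 0.45 in monolayers, 2.25-fold lower, and at -0.30 and 0.30 in sheets. Inhbb, the activin beta B chain, was at 0.87, Tgfb3 at 0.78 and Vegfa at 0.55, while Fgf1 was at -0.73. Stc1 (stanniocalcin-1), a secreted glycoprotein hormone, differed by -1.07 over 3 probe sets (-1.28 to -0.97), and its sheet arrays differed by 0.15 in the other direction. Of the 20 genes of the IGF axis 0 were past 2-fold as averages, with Igfbp7 at -0.71 and Igfbp5 at 0.66 at the ends.

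Secreted antagonists of bone morphogenetic proteins were found on both sides. In a list of 44 BMP and TGF-beta genes with a median of -0.02, Grem1 (gremlin-1) was 3.01-fold higher and Bmper 2.35-fold higher, while Nog (noggin) was 2.25-fold lower. Grem1 was at 0.79 and -0.80 in monolayers and at 0.41 and -0.41 in sheets. Nog was at -0.58 and 0.58 in monolayers and at -0.58 and 0.62 in sheets, so that its arrays divided by cell line and hardly by form of culture. The Id genes, transcriptional inhibitors induced by BMP signals, differed by 0.01 for Id1, 0.50 for Id2, 0.76 for Id3 and 0.61 for Id4.

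In the Notch pathway the ligand Jag1 and the target gene Hes1 were both more than 2-fold lower, with differences of -1.10 and -1.05. Jag1 was at -1.21 and -0.11 in monolayers and at 0.11 and 0.31 in sheets, so that the L6-HGF monolayer array stood apart, and Hes1 was at -0.58, 0.47, -0.20 and 0.20 on the arrays in the same order. The receptor Notch1 (-0.28) and the target gene Hey1 (-0.21) were within 2-fold. Of the 39 Wnt and Notch genes 27 were below 0, with a median of -0.11, and Axin2, a target of canonical Wnt signalling, was highest at 0.67. Draxin, a secreted guidance molecule that also antagonises Wnt, differed by -1.09, from 0.12 and 1.21. Pcdhb19, an adhesion protein of the protocadherin beta cluster, was 2.76-fold lower, and its arrays were at -1.12 and 0.35 in monolayers and -0.35 and 0.88 in sheets.

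The other genes lower by more than 2-fold were of varied kind. Nrep, a small protein known from regenerating neurons, was the one gene past 2-fold among 10 Schwann cell and neural markers (median -0.13). It was at -1.80 and 0.14 in monolayers and at -0.14 and 1.46 in sheets, 3.85-fold and then 3.03-fold lower. The imprinted gene Mest differed by -1.06, from 0.22 and 1.29, and Tfdp2, a dimerisation partner of E2F transcription factors, by -1.13, with 3 probe sets at -1.49 to -0.91. Osr2, a zinc finger transcription factor of developing limbs and palate, was at -0.01 and 1.02 in monolayers and at -1.26 and 0.01 in sheets. Acy3, an aminoacylase, Cnksr3, a scaffold protein, Septin4, a filament-forming GTPase, Map3k7cl, Zscan18 and Dmxl2 differed by -1.15 to -1.01.

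On the high side the largest differences were those of Coro1a, Anxa8, Akr1c3, Efhd1, Gnai1 and Krt19. Coro1a (coronin-1A), an actin regulator typical of leukocytes, was at 1.57 and -0.55 in monolayers and at 0.55 and -0.80 in sheets, 4.35-fold and 2.54-fold higher in L6-HGF. It was not accompanied by other leukocyte markers: of 15 measured, 8 were above 0 and 7 below, Coro1a alone was past 2-fold, and Ptprc, which encodes CD45, was at -0.43. Krt19 (keratin 19), a filament protein of epithelia, was at 1.05 and -0.58 in monolayers and at 0.58 and -0.72 in sheets. Of the 11 epithelial markers 8 were below 0, with Epcam at -0.39, Cdh1 (E-cadherin) at -0.09, Krt8 at -0.09 and Krt18 at -0.19. The values are centred, so that whether these markers were present at all cannot be read from them.

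Anxa8, a calcium-dependent phospholipid-binding annexin, was at 0.31 in L6-HGF and -1.75 in L6-WT monolayers and at 0.84 and -0.31 in sheets, 4.16-fold higher. Its high value thus came with a low L6-WT monolayer array, and the other 19 annexins and S100 proteins were within 2-fold. Gnai1, an inhibitory G protein alpha subunit, was at 1.33 and -0.31, 3.11-fold higher, and Gngt2, a gamma subunit, at -0.18 and -1.35. In sheets Gnai1 was at 0.23 and -0.23, and Gngt2 at 0.18 and 0.19. The monolayer difference of Gngt2 thus came with a low L6-WT monolayer array. Cd55, which protects cells from complement, was higher on both of its probe sets (1.18 and 1.66), with monolayer arrays at 1.15 and -0.27 and sheet arrays at 0.27 and -0.72.

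Several enzymes of redox, steroid and xenobiotic metabolism were higher. Akr1c3, an aldo-keto reductase of steroids and prostaglandins, was at 1.82 on the L6-HGF monolayer array, while the other 3 arrays lay between -0.06 and 0.06, so that its 3.66-fold difference rests on that array alone. Ptgr1, which reduces prostaglandins and leukotrienes, was by contrast at 0.32 and -0.85 in monolayers and at 0.78 and -0.32 in sheets, more than 2-fold higher in both. The pantetheinase Vnn1 differed by 1.27, the cytochrome P450 Cyp3a9 by 1.27 and the alcohol dehydrogenase Adh7 by 1.13 in monolayers, and by 0.72, -0.05 and 0.69 in sheets. Of the 29 genes of the NRF2 and oxidative stress list, 17 were above 0 with a median of 0.06, and Akr1c3 was the only one past 2-fold. Ptgr1, Vnn1, Cyp3a9 and Adh7 belong to no list here and are not in this count. Gpx3, the secreted glutathione peroxidase, was just within 2-fold on the low side at -0.99.

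The cholesterol synthesis and uptake genes were the list with the highest median in monolayers. Of 21 measured, 19 were above 0, 2 were more than 2-fold higher and 0 lower, with a median difference of 0.57, or 0.31 in sheets. Mvd, the mevalonate diphosphate decarboxylase, was at 1.11 and -0.14 in monolayers and at 0.14 and -0.25 in sheets. Hsd17b7, which acts in the late steps of the pathway, differed by 1.24, with 2 probe sets at 1.08 and 1.39, and its other 3 arrays were at 0.27 in L6-WT monolayers and at -0.27 and -0.78 in the sheets. Below the limit, Fdps was at 0.96, Acat2 at 0.95, Ebp at 0.91, Tm7sf2 at 0.90, Nsdhl at 0.84, Cyp51 at 0.80 and Sqle at 0.52, whereas the regulators Srebf2 (-0.04) and Scap (-0.13), needed to switch on the pathway, were the 2 members below 0.

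The median relative value of these 21 genes was 0.80 in L6-HGF monolayers, 0.09 in L6-WT monolayers, -0.08 in L6-HGF sheets and -0.42 in L6-WT sheets, highest in monolayers for each cell line and highest in L6-HGF for each form of culture. Genes of fatty acid synthesis lay on the same side, with 11 of 15 above 0 and a median of 0.28, and 0 past 2-fold. Acss2 (0.85), Acly (0.80) and Elovl6 (0.80) were the highest, and Srebf1, the regulator of that pathway, was lowest at -0.42. Tfrc, the transferrin receptor for iron uptake, belongs to no list here and was 2.03-fold higher, with relative values of 0.20 and -0.82 in monolayers and 0.52 and -0.20 in sheets.

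The promoter stretches of Mvd and Hsd17b7 are printed because CCAAT boxes, bound by NF-Y, commonly accompany sterol elements in genes of this pathway. Both are RefSeq sequences in build GRCr8, on the minus strand and 5′ to 3′ along the gene. Mvd lies at chr19:67414980-67415034 and Hsd17b7 at chr13:84722755-84722804, each window ends no later than the start site, and the box, here in its reverse form ATTGG, is in capitals. The whole promoter holds 2 such boxes for Mvd and 3 for Hsd17b7, of which the one shown is the last that lies fully before the start.
Mvd: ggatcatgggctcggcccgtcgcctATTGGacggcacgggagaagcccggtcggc
Hsd17b7: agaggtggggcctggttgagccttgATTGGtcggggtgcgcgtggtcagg
CCAAT, on either strand, occurs in 13 of the 17 cholesterol genes with a promoter in the table (76.5%) and in 37.7% of all promoters. The letters TCACNCCAC, a form of the sterol response element, occur in 0 of the 17 and in 1.13% of all promoters, which says only that these letters are not in these windows. The motifs were chosen with the values known.

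Interferon-induced genes were the list with the most members past 2-fold on the high side. Of 45 measured, 35 were above 0, 5 were more than 2-fold higher and 0 more than 2-fold lower, with a median of 0.21. Gbp4, a guanylate-binding GTPase of host defence, was at 1.29 in L6-HGF and -0.11 in L6-WT monolayers and at -0.10 and 0.10 in sheets, and Usp18, which removes ISG15 from proteins, was at 1.04, -0.20, -0.13 and 0.13. Rsad2 (viperin) and Mx1, both antiviral, were at 0.94 and 1.06 in L6-HGF monolayers, with the other 3 arrays at -0.38 to 0.18 and at -0.03 to 0.02. For these 4 genes the L6-HGF monolayer array stood apart from the other 3.

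Cxcl10, a chemokine that attracts T cells, was at 0.90 and -0.28 in monolayers but at -1.51 and 0.28 in sheets, so that L6-HGF was higher in monolayers and lower in sheets. Close below the limit were Isg15 (0.90), Irf7 (0.82) and Gbp2 (0.80), whose sheet differences were -0.89, -0.54 and -0.66. Irf1 was lowest at -0.53, and Ifit1 (-0.24) and Irf8 (-0.24) were also below 0. Over the whole list the median was 0.21 in monolayers and -0.30 in sheets. Ifgga2l1, in no list here, differed by 1.01 in monolayers and by -0.55 in sheets.

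Promoter stretches of 3 of these genes are printed because they hold an interferon-stimulated response element (ISRE), to which interferon regulatory factors and the STAT complex ISGF3 bind. The letters searched were GAAA, any 2 bases and GAAA again, on either strand, and they are in capitals. All 3 are RefSeq sequences in build GRCr8, 5′ to 3′ along the gene: Gbp4 at chr2:233978451-233978485 on the plus strand, Cxcl10 at chr14:15988816-15988857 on the plus strand and Rsad2 at chr6:48788233-48788292 on the minus strand.
Gbp4: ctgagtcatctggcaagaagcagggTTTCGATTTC
Cxcl10: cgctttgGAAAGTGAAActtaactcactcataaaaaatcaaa
Rsad2: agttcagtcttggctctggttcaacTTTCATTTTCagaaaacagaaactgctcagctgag
The element begins 10 bases before the start site of Gbp4, 243 before that of Cxcl10 and 147 before that of Rsad2. It occurs in 23 of the 37 interferon genes with a promoter in the table (62.2%) and in 3.77% of all promoters. These letters were likewise chosen with the values known.

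The remaining genes more than 2-fold higher were of varied kind. Il1rl1, the receptor for interleukin-33, was at 1.27 on the L6-HGF monolayer array with the other 3 at -0.10 to -0.06, and its 2 probe sets gave 0.67 and 1.98. Psca, a surface antigen anchored by glycosylphosphatidylinositol, was at 0.28 and -1.11, and Gpr15lg, the ligand of the receptor GPR15, at -0.49 and -1.66 in monolayers and 1.23 and 0.49 in sheets. Hopx, an atypical homeodomain protein without DNA binding of its own, was at 0.77 and -0.31 and divided the arrays by cell line. Armcx4 and RGD1309362 differed by 1.06 and 1.07, both from the L6-HGF monolayer array, with sheet differences of -0.09 and -0.25.

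**Figure D3:**
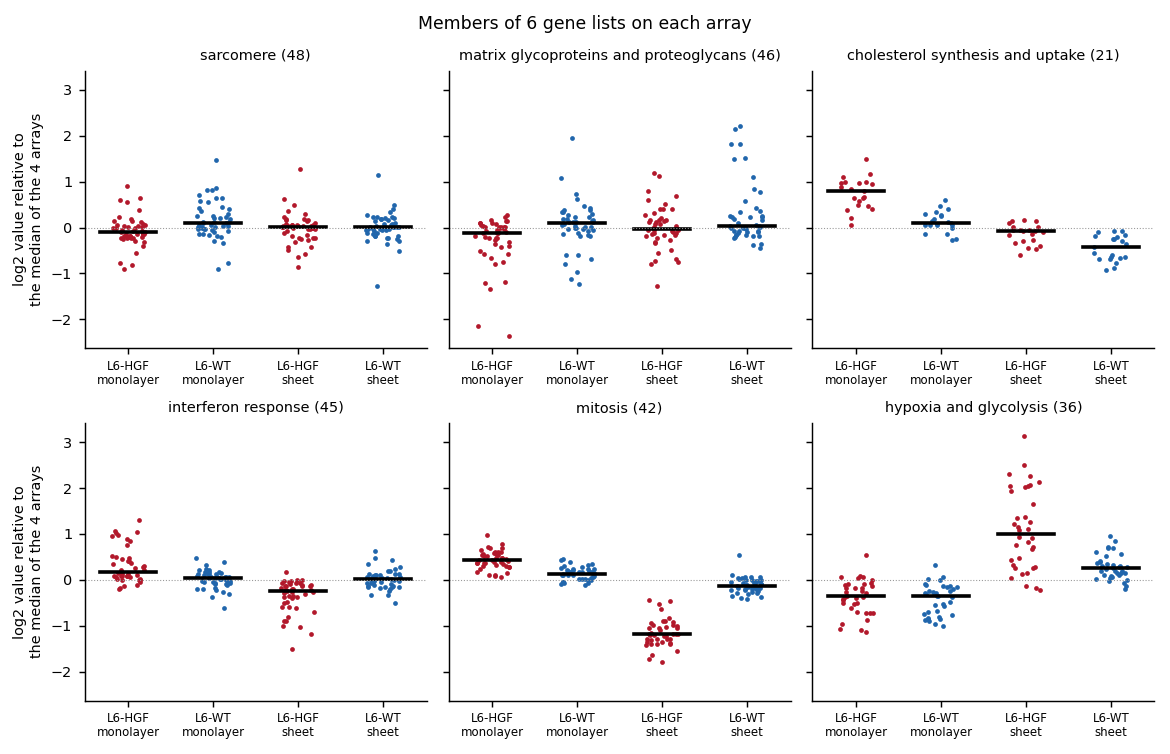
Relative log2 values of the members of 6 gene lists on each array, with red for L6-HGF, blue for L6-WT and black bars for the median. The cholesterol genes are highest in L6-HGF monolayers (median 0.80), while the mitosis genes are slightly above 0 on both monolayer arrays and far below 0 in L6-HGF sheets.

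Genes of cell division had mostly small positive differences, with none past 2-fold. Of 42 mitosis genes 40 were above 0, with a median difference of 0.31 and 0 past 2-fold, and of 39 DNA replication genes 30 were above 0, with a median of 0.16. The highest were Ccna2 (cyclin A2) at 0.70, Mad2l1, a spindle checkpoint protein, at 0.62 and Pole, a DNA polymerase, at 0.61, and Mki67, the common proliferation marker, was at -0.03. In sheets the mitosis genes had a median of -1.09, all 42 were below 0 and 23 of them lay past 2-fold. Genes of hypoxia and glycolysis differed by a median of 0.11 in monolayers and 0.65 in sheets, so that the L6-HGF sheet array stood apart from the other arrays in these 3 lists. Its part in the sheet values of the genes above was not tested.

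The medians of the remaining lists lay between -0.12 and 0.06. The 33 apoptosis regulators had a median of -0.00 with 16 above 0 and 17 below, the 20 p53 targets a median of 0.01 and the 16 integrins a median of 0.04, with Itga3 highest at 0.81. Chemokines and interleukins had a median of -0.08 over 36 genes, with Cxcl10 and Il1rl1 past 2-fold. The 36 cadherins and junction genes (-0.08), the 12 smooth muscle genes (-0.06), the 30 genes of the unfolded protein response and ATF4 (0.05) and the 14 endothelial (-0.06) and 9 adipocyte markers (-0.04) had 0 members past 2-fold. The 33 guidance genes (-0.10), 23 keratins and other intermediate filaments (-0.00), 35 coronins and cortical actin regulators (0.06), 29 complement and coagulation genes (-0.12) and 31 G protein subunits and regulators (0.05) had no members past 2-fold other than Nrp1, Krt19, Coro1a, Cd55, Serpinf1 and Gnai1. Draxin, Gngt2 and Pcdhb19, given above as past 2-fold, belong to no list here and are not in these counts. In the unfolded protein and ATF4 list Asns, asparagine synthetase, was highest at 0.73.

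Set beside the sheets, most genes of both groups lay on the same side there. Of the 44 lower genes 42 had a negative sheet difference, 18 were also more than 2-fold lower there and 32 had both L6-HGF arrays below both L6-WT arrays, beside 15.2% of all genes. Of the 32 higher genes 23 had a positive sheet difference, 5 were also more than 2-fold higher there (Coro1a, Anxa8, Krt19, Serpinb2 and Ptgr1) and 18 had both L6-HGF arrays above both L6-WT arrays, beside 12.9% of all genes. As the monolayer difference chose these genes, the counts of arrays that do not overlap describe them and are no support. In sheets 0.492% of all genes were more than 2-fold higher and 0.95% lower. The sheet difference was positive in 6573 of all 14217 genes and negative in 7630. The median difference was 1.25 in monolayers and 0.49 in sheets for the higher genes and -1.29 and -0.83 for the lower ones.

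**Figure D4:**
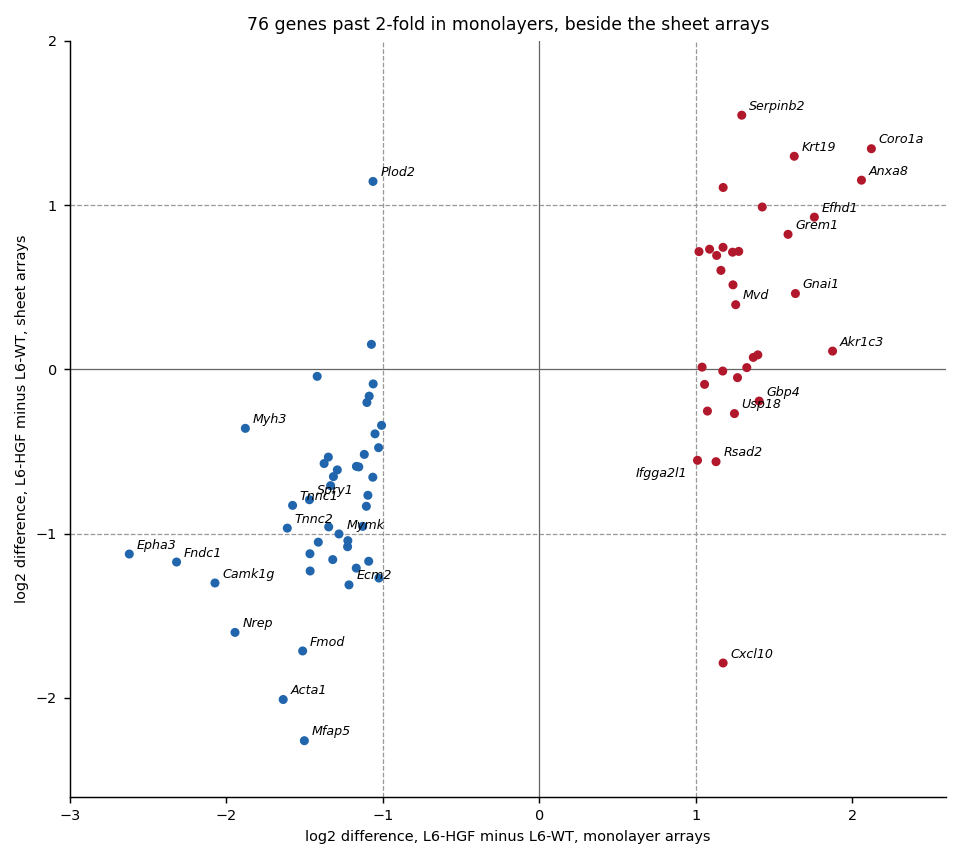
L6-HGF minus L6-WT, in log2 units, on the monolayer arrays (horizontal axis) and on the sheet arrays (vertical axis) for the 76 genes past 2-fold in monolayers, red where higher and blue where lower. Dashed lines mark 2-fold. Cxcl10 and Plod2 are the 2 genes past 2-fold in opposite directions.

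The genes past 2-fold were chosen by the average of their probe sets, which favours genes whose probe sets agree. The agreement given here is therefore a description only. Of the 76 genes past 2-fold, 12 had more than 1 probe set, all 12 with every probe set on the same side of 0, and 8 with every probe set past 2-fold. Among the other genes, 10 had at least 1 probe set past 2-fold and another on the opposite side of 0, so that their average hides a disagreement. One of the 4 probe sets for Igf2, insulin-like growth factor 2, was at -1.08 and 1.80 in L6-HGF and L6-WT monolayers, 7.35-fold lower, and the other 3 differed by -0.05, 0.05 and 0.22. Tnnt2, cardiac troponin T, had probe sets at -1.42 and 0.03. Synpo2, an actin-bundling protein of the Z-disc, had 1 of 4 past 2-fold at -1.42 and Gas6, the ligand of the AXL receptor, 1 of 3 at -1.41. The other 6 genes of this kind were Ablim1, Slc1a3, Tg, Thrb, Tnfaip6 and Tpm3. The probe sets of Slc1a3 were at -1.58, -1.38 and 0.06. Which of the probe sets measures the gene's main transcript was not tested.

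A further 17 probe sets that could not be given 1 gene name were more than 2-fold higher and 11 were more than 2-fold lower. The largest were 1380768_at at 1.76 and 1378602_at at 1.52 on the high side and 1377789_at at -1.94 and 1393559_at at -1.39 on the low side. The probe set 1377789_at was at 0.10 and 2.04 in L6-HGF and L6-WT monolayers and at -0.91 and -0.10 in sheets, lower in L6-HGF in both.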

How the data were processed

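RNA was isolated by the authors with Trizol and RNeasy columns and hybridised to Affymetrix rat genome arrays, 1 per culture. The deposited values are log2 signals made by RMA and normalised to the median by the authors, centred per probe set, so that differences but no signal levels could be computed and no filter on dim probe sets was possible. The RMA version is not given in the sources used here. Of 31099 probe sets, 57 controls were left out, 20826 had 1 gene symbol in the platform annotation, 436 had several and 9780 were not listed there. Differences were averaged per gene with Python 3.11.15, pandas 2.3.3 and numpy 2.4.6. The calculation was tested on simulated data. All 76 genes past 2-fold are named, with list members within 2-fold chosen from 39 gene lists, of whose 1143 symbols 100 were not matched. Members, lists and motifs were chosen with earlier results of these data known. Alternatives were other normalisations, all applied to the centred values, fold limits and ways of joining probe sets. With 1 array per condition no test was made.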

Additional observations from a re-analysis of the deposited data

Results flagged for a closer look

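In 2 genes L6-HGF and L6-WT differed by more than 2-fold in both forms of culture, but in opposite directions. Cxcl10 differed by 1.17 in monolayers and by -1.79 in sheets, and after quantile normalisation by 1.28 and -1.39. Plod2 differed by -1.06 in monolayers and by 1.14 in sheets, and after quantile normalisation by -1.18 and 0.91. Each value compares 1 array with 1 array, and the difference between the forms of culture was not tested.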

How the results depend on the processing

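With 1 array per condition, neither a replicate can be left out nor a spread estimated, and a dim probe set cannot be recognised because the values are centred. No paired analysis was possible because each condition has 1 array. Quantile normalisation gave 114 probe sets more than 2-fold higher, against 63, and 126 lower, against 85, and left 73 of the 76 genes past 2-fold, all but Postn (-0.92), Dpt (-0.75) and Fam180a (-0.97). A limit of 1.5-fold gave 478 higher and 494 lower probe sets and 173 higher and 184 lower genes, and a limit of 3-fold gave 10 and 12 probe sets and 7 and 7 genes. Under quantile normalisation and a common interquartile range, 0 of the 76 genes changed sign. The median of probe sets could not change their signs, as all probe sets of each such gene lay on 1 side of 0. Under these 3 settings 0 of the 17 list medians of at least 0.1 in size changed sign. The median of the cholesterol genes ranged from 0.54 to 0.75 over these settings, with 4 genes past 2-fold after quantile normalisation.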
